A study of Mus musculus with 66 samples.

Results

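Oligodendrocyte and myelin genes were followed in RNA from the ventral striatum of mice killed at 6 times of day, with saline or cocaine given before the later ones. The set holds 9 of the 24138 entries of the deposited gene table, matched by symbol: Mbp, Mobp, Mog, Mag, Cnp, Mal, Opalin, Olig1 and Olig2. Every symbol matched 1 entry, and all 9 reached 1 FPKM in each of the 66 distinct libraries, so none was lost to the filter on low values, which left 14643 entries. FPKM (fragments per kilobase of transcript, scaled to the mapped fragments of a library) is a level per length, so levels of different genes can be set side by side. Comparisons between libraries also depend on how each library was scaled.

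Oligodendrocytes wrap axons of the central nervous system in myelin, a stack of membrane sheets that speeds conduction. Mbp (myelin basic protein) compacts the inner faces of the sheets, Mobp is a further small basic protein of myelin, and Cnp encodes an enzyme of the non-compact cytoplasmic channels. Mog lies on the outermost sheet, Mag on the sheet next to the axon, Mal is a proteolipid that takes part in membrane trafficking, and Opalin is a membrane glycoprotein of mature oligodendrocytes. Olig1 and Olig2 are basic helix-loop-helix transcription factors that specify the lineage. In the striatum, myelin surrounds the fibre bundles that cross the tissue, so the level in a punch depends on how much fibre it holds. In bulk RNA, fewer oligodendrocytes and less RNA per oligodendrocyte cannot be told apart.

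The study compared wild-type (WT) mice with iMSN-D2RKO mice, both listed as C57BL/6, males 3 to 5 months old. In iMSN-D2RKO mice both D2R alleles are floxed and a Cre recombinase driven by the D1R promoter is carried on 1 allele, which removes the dopamine D2 receptor from indirect-pathway medium spiny neurons because their embryonic precursors express D1R. No gene was deleted in oligodendrocytes by design. All mice were kept under 12 h of light and 12 h of darkness, and received saline or 20 mg/kg cocaine at zeitgeber time (ZT, hours after lights on) 3. Punches were taken at ZT3, listed without a dose as a baseline common to saline and cocaine, and at ZT7, ZT11, ZT15, ZT19 and ZT23. There were 3 libraries in each of 22 groups. The labels do not say whether a library is 1 mouse or several, and p-values measure the spread between these libraries.

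Drd2, the targeted gene, ran from 99.1 to 304 FPKM in WT libraries (median 129, n = 33) and from 78.0 to 375 FPKM in iMSN-D2RKO libraries (median 112, n = 33). These ranges overlap, and a whole-gene FPKM does not test a deletion of part of the gene in part of the cells, so the genotype labels were not checked by it. Summed FPKM lay between 364078 and 425078 in 63 libraries and was 458223, 465297 and 690048 in the other 3 (WT ZT19 cocaine replicate 2, iMSN-D2RKO ZT23 saline replicate 2 and iMSN-D2RKO ZT7 saline replicate 1). Read numbers are unknown. Between replicates, 43.6% of the variance of 9540 genes, from which the oligodendrocyte lists had been left out, lay on 1 axis, and 13 libraries stood apart on it, scoring 44.2 to 55.9 against -35.9 to 15.001 in the other 53. Of these set-apart libraries 1 is of ZT7, 2 are of ZT15, 6 of ZT19 and 4 of ZT23, and they come from both genotypes and both treatments. Values below are given with and without these libraries where they matter.

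Mbp was by far the most abundant of the 9 genes, with a mean level of 1870 FPKM over the 66 libraries. Cnp (220 FPKM), Mal (182 FPKM), Mobp (145 FPKM) and Mag (119 FPKM) followed, and Olig1 (96.7 FPKM), Opalin (43.9 FPKM), Mog (43.3 FPKM) and Olig2 (14.4 FPKM) were lower. Olig1 was thus listed well above Olig2, its neighbour 41.1 kb away on chromosome 16. The other genes are on chromosomes 2 (Mal), 7 (Mag), 9 (Mobp), 11 (Cnp), 17 (Mog), 18 (Mbp) and 19 (Opalin), in GRCm38, the build called mm10 in the study. Mobp shares its strand with part of Gm38642, and Olig1, Cnp, Mog and Mbp overlap Gm15966, Dnajc7, Gm22388 and the pseudogene Rpl21-ps8 on the opposite strand. Whether strand was used in the counting is not given in the sources used here, so those levels can hold reads of their neighbours.

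Genes of peripheral myelin other than Pmp22 averaged below 1 FPKM. Among the 5 on that list, Pmp2 averaged 0.0409 FPKM, while Pmp22, which other cells also express, averaged 17.0 FPKM and Ncmap 0.773 FPKM. Among 28 other myelin genes, of which 27 were listed by symbol, Plekhb1 (208 FPKM) and Qdpr (170 FPKM) were among the 3 most abundant. Oligodendrocyte transcription factors were led by Sox10 (34.3 FPKM), Sox8 (32.6 FPKM) and Nkx6-2 (24.1 FPKM), and genes of precursors and newly formed cells by Bcas1 (83.2 FPKM), Lhfpl3 (17.3 FPKM) and Gpr17 (14.3 FPKM).

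The 3 upstream regions that follow belong to the genes the results turn on: Mog and Mal, which parted in the set-apart libraries, and Opalin, which was lowest at ZT15. Each is the 250 bases before the transcription start in RefSeq's table for GRCm38.p6, which matched 7 of the 9 symbols (not Mbp and Olig1). Mog lies at chr17:37023399-37023648, Mal at chr2:127656696-127656945 and Opalin at chr19:41077114-41077363, all on the minus strand, and capitals mark the motifs found.

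Mog: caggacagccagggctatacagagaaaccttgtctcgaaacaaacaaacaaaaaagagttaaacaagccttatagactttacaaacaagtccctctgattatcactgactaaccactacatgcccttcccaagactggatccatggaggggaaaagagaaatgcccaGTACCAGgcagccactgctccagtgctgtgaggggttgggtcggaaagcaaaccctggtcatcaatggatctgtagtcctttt

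Mal: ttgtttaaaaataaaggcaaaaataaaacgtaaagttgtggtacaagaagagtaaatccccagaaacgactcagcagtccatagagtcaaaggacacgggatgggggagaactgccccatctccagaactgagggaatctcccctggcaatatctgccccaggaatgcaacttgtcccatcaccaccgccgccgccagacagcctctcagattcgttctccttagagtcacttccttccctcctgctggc

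Opalin: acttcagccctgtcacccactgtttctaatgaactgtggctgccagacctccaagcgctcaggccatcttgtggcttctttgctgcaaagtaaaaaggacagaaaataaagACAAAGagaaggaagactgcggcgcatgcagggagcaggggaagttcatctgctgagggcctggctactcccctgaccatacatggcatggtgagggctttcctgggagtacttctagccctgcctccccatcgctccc

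Both strands were searched for 6 short motifs: the clock E-box CACGTG, the OLIG2 E-box CATATG, the SOX core ACAAAG, the MYRF words CTGGCAC and CTGGTAC, and TATAAA. MYRF and SOX10 are transcription factors of myelin genes. Mog holds CTGGTAC, present in 1.83% of the 32851 upstream regions of the table, and Opalin holds ACAAAG, present in 16.5%. Mag and Cnp hold both ACAAAG and CTGGCAC, the latter present in 4.19% of all upstream regions, and Mobp holds 6 copies of ACAAAG. Olig2 holds TATAAA (12.4% of all), and Mal holds none of the 6. Neither CACGTG (6.02% of all) nor CATATG (3.46% of all) was found upstream of the 7 genes. A match describes the letters only.

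Groups of 3 next to each other in the order of their means differed less than the spread within groups for nearly every pair. When the 22 groups were ordered by mean, the 21 neighbouring pairs overlapped in their library values for every gene, with 1 exception in Mobp. WT ZT7 saline had the highest mean of 7 genes, including Mbp at 2989 ± 339 FPKM (SD, n = 3) and Mog at 90.9 ± 8.72 FPKM. Opalin was highest in iMSN-D2RKO ZT7 saline (86.3 ± 70.2 FPKM) and Olig2 in WT at ZT3 (20.9 ± 2.77 FPKM). At the other end, WT ZT19 cocaine had the lowest mean of Mog (10.9, 11.4 and 19.7 FPKM), Mag (62.9 ± 13.7 FPKM), Cnp (119 ± 21.2 FPKM) and Olig2 (8.70 ± 3.07 FPKM). Mbp was lowest in iMSN-D2RKO ZT23 saline (1393 ± 356 FPKM). The highest group mean exceeded the lowest by 1.78-fold for Mal, 2.15-fold for Mbp and 6.48-fold for Mog. For every gene the libraries of its highest and lowest group did not overlap. Close neighbours and distant extremes both follow in part from ordering 22 groups by mean.

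**Figure D1:**
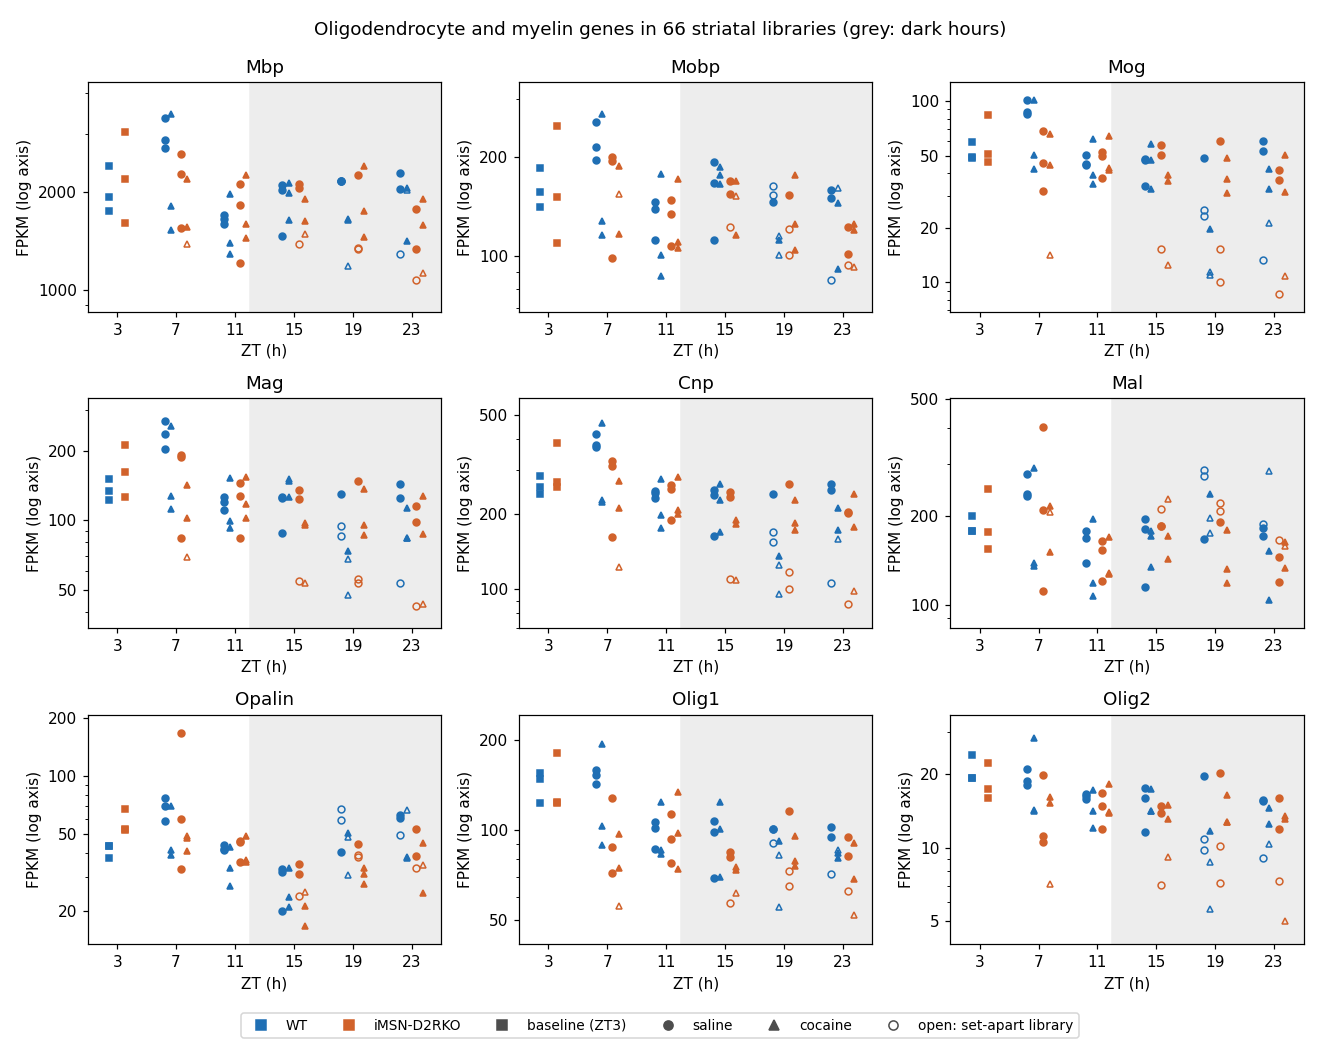
FPKM (log axis) of the 9 genes against ZT, 1 point per library, with genotype by colour, treatment by shape and the 13 set-apart libraries as open symbols. Open symbols sit at the bottom of the Mog, Mag, Cnp and Olig2 panels and not of the Mal panel, and Opalin is lowest at ZT15.

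Replicates varied more in these genes than in most. The SD of log2(FPKM + 1) around the group means was 0.71 for Mog, at the 98.0th percentile of the 9584 genes with a mean of at least 5 FPKM, and 0.50 for Mag, at the 91.3rd. Cnp (0.45, 87.3rd percentile) and Olig2 (0.41, 81.4th percentile) came next, and Olig1 was the steadiest (0.32, 62.9th percentile). All 9 lay above the median SD of 0.28. Without the 13 set-apart libraries the order changed: Opalin was at the 93.2nd percentile, Mobp at the 92.8th, Mal at the 92.3rd and Mog at the 89.6th. Without the 3 libraries of high summed FPKM as well, Mobp (96.7th percentile) and Mog (95.6th percentile) ranked highest, and Opalin was at the 89.5th.

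Within the 53 other libraries the 9 genes went up and down together between replicates of a group. Correlations are given within these libraries because the 13 form a separate cluster. Deviations from group means hold fewer independent values than libraries, since a group left with 1 library deviates by 0. This was so in WT ZT19 saline, where 2 of 3 libraries are set apart. Mbp deviated from its group means with Mobp (Pearson r = 0.923), Mog (r = 0.904), Cnp (r = 0.909), Mag (r = 0.899), Olig2 (r = 0.868), Mal (r = 0.836) and Olig1 (r = 0.814), and least with Opalin (r = 0.572, n = 53 for each). Without the 3 libraries of high summed FPKM as well, r was 0.783 for Opalin, still the lowest, and 0.944 for Mal (n = 50). Over the 53 libraries, Spearman's rho ran from 0.647 for Opalin to 0.936 for Cnp. In a permutation test that shuffled libraries within groups (100000 draws, 2-sided), p was 0.00001 for 7 pairs, the smallest it can give, and 0.00035 for Opalin, with adjusted p of at most 0.00035 over the 8 pairs. With all 66 libraries but without replicate 3 of every group, Mal (r = 0.372) and Opalin (r = 0.303) no longer passed (permutation p = 0.142 and 0.11, n = 44). Without the 2 libraries farthest from the median in Mbp, r ran from 0.521 for Opalin to 0.908 for Mobp. Over all 36 pairs of the 9 genes, r had a median of 0.829 and a minimum of 0.320, for Opalin and Olig2. Within the 13 set-apart libraries, r of the log2 levels ran from 0.387 to 0.978 (median 0.796, 36 pairs), where differences between groups are included.

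By the Pearson r of their deviations with the mean deviation of the 9 genes over 66 libraries, the most alike genes outside the myelin lists were Tmbim1 (r = 0.950), Tmem125 (r = 0.941), Cd82 (r = 0.927), Prr18 (r = 0.926), Cdc42ep2 (r = 0.919), Adssl1 (r = 0.905), Elovl1 (r = 0.905), Lgi3 (r = 0.904), Arsg (r = 0.897) and Apod (r = 0.894). Over the 53 libraries their r lay between 0.857 and 0.948. The least alike were Scn3b (r = -0.820), a subunit of voltage-gated sodium channels, Ldb2 (r = -0.799), an entry whose symbol had been turned into a date (r = -0.764), Vopp1 (r = -0.760) and Efnb2 (r = -0.759). Among the marker lists, the median r over the 53 libraries was 0.843 for 26 other myelin genes, 0.711 for 4 oligodendrocyte transcription factors, 0.431 for 5 precursor genes, 0.442 for 10 astrocyte markers and 0.178 for 10 microglia markers. It was 0.243 for 6 endothelial markers, 0.104 for 3 choroid plexus and ependymal markers, -0.299 for 12 markers of medium spiny neurons and -0.403 for 4 of cortical excitatory neurons, beside -0.0417 for all genes. These r are descriptions over libraries that share 1 scaling.

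Between the set-apart libraries and the others, the 9 genes differed by unequal amounts, although they went up and down together within each kind. Mog ran from 8.56 to 25.1 FPKM (median 13.2) in these 13 libraries and from 19.7 to 101 FPKM (median 47.8) in the other 53, and 1 of the 53 lay in the lower range. Mal went from 158 to 288 FPKM (median 208) in the 13 and from 104 to 402 FPKM (median 170) in the 53. The 13 libraries were thus nearly all below the others in Mog, while in Mal 22 of the other 53 lay below all 13.

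The ratio of Mal to Mog divided the libraries much as Mog alone did. Mal and Mog had the highest and the lowest mean difference of the 9 genes between these libraries, so the division follows in part from the choice of this pair. The ratio was 10.9 to 20.7 (median 14.6) in the set-apart libraries and 2.63 to 4.70 in 51 of the other 53. The remaining 2 had ratios of 8.80 (iMSN-D2RKO ZT7 saline replicate 1) and 12.1 (WT ZT19 cocaine replicate 2), and both are among the 3 with a summed FPKM above 450000. All 3 libraries of WT ZT19 cocaine therefore had a high ratio.

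**Figure D2:**
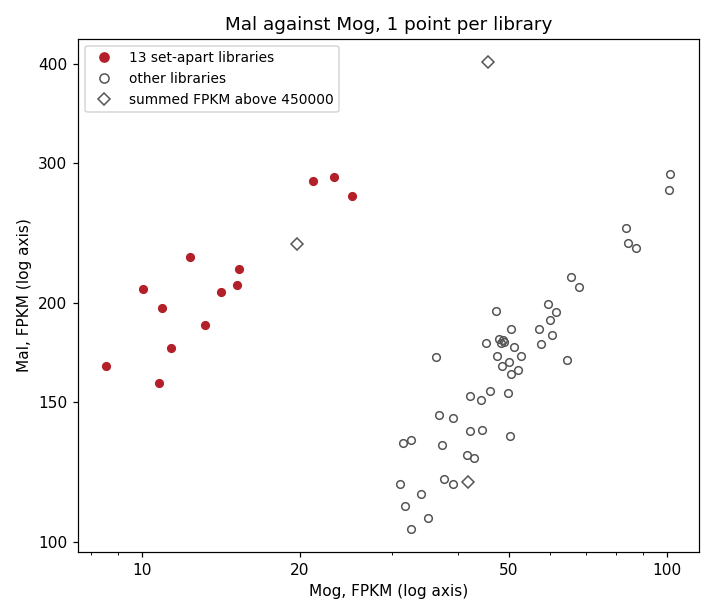
Mal against Mog in FPKM (both axes log), 1 point per library, with the 13 set-apart libraries filled and the 3 libraries with a summed FPKM above 450000 as diamonds. The set-apart libraries lie at 8.56 to 25.1 FPKM of Mog with Mal at 158 FPKM or more, away from the band formed by 51 other libraries.

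In 10 groups that held both kinds of library, the set-apart libraries were lower than their companions in Mog (mean difference -1.57 ± 0.54 on the log2(FPKM + 1) scale, SD over 10 groups). Differences were -0.92 ± 0.44 for Mag, -0.88 ± 0.39 for Cnp and -0.84 ± 0.28 for Olig2, and all 4 genes were lower in 10 of 10 groups. Olig1 was lower in 9 groups (-0.41 ± 0.25), Mbp in 8 (-0.39 ± 0.33) and Mobp in 6 (-0.16 ± 0.38). Opalin was lower in 5 and higher in 5 (0.02 ± 0.45), and Mal was higher in 9 (0.32 ± 0.42). Among the 9584 genes with at least 5 FPKM, 34.2% were lower and 42.1% higher in at least 9 of the 10 groups, so many genes outside this set moved as well. Mog was at the 0.845th percentile of these differences, Mag at the 5.98th and Cnp at the 6.90th.

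Other genes of the lineage also moved both ways, the other myelin genes at shares below those of all genes. Of 27 other myelin genes, 6 (22.2%) were lower in at least 9 groups, beside 29.6% of all 14643 tested genes, among them Cldn11, the claudin of myelin tight junctions (-0.86 ± 0.35). A further 6 (22.2%) were higher, beside 37.4% of all tested genes, among them Ermn, a cytoskeletal protein of mature oligodendrocytes (1.23 ± 0.49), and Ugt8a, which makes the galactolipids of myelin (0.83 ± 0.36). None of 9 oligodendrocyte transcription factors was lower and 3 were higher in at least 9 groups, including Sox10 (0.40 ± 0.33). Of 10 precursor genes 4 were lower and 4 higher (40% each), beside 29.6% and 37.4% of all tested genes. Microglia markers were lower for 7 of 10 and higher for 1, endothelial markers lower for 3 and higher for 5 of 8, and astrocyte markers lower for 3 and higher for 4 of 10. Of 12 markers of medium spiny neurons 4 were lower and 1 higher, of 7 cortical markers 1 and 1, of 8 choroid plexus and ependymal markers 0 and 1, and of 3 peripheral myelin genes none moved in at least 9 groups. Summed over its list, the level of the 9 genes was 1571 to 3067 FPKM in the 13 libraries and 1870 to 5138 FPKM in the 53, that of the microglia markers 243 to 329 and 201 to 655 FPKM, and that of the medium spiny neuron markers 3856 to 5974 and 2937 to 15780 FPKM. What sets the 13 libraries apart was not tested.

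The first comparison asks whether a single injection of cocaine changed myelin genes in WT mice. None of the 9 genes was called over the 5 time points after injection (limma, adjusted p < 0.05 over 14643 genes), and 1, Opalin, had an unadjusted p below 0.05. The background was as low, since 0.0137% of all genes were called. Opalin was 20.9 to 70.1 FPKM after cocaine (median 38.2, n = 15) and 20.1 to 76.8 FPKM after saline (median 49.5, n = 15), ranges that pool 5 times of day. Its group mean was lower after cocaine at each of them. The means after cocaine and saline were 50.2 and 68.2 FPKM at ZT7, and 34.4 and 42.4 FPKM at ZT11. They were 26.0 and 28.4 FPKM at ZT15, 43.2 and 55.5 FPKM at ZT19, and 47.3 and 57.6 FPKM at ZT23. The Opalin difference was -0.32 on the log2(FPKM + 1) scale (SE 0.13, 95% interval -0.59 to -0.05, unadjusted p = 0.0223, adjusted p = 1 in limma). Mbp was 1180 to 3462 FPKM after cocaine (median 1650) and 1284 to 3368 FPKM after saline (median 2101), with a difference of -0.22 (95% interval -0.47 to 0.03). The 9 differences lay below 0 in every case, with a median of -0.22 beside 0.00 for all genes, and those of 27 other myelin genes had a median of -0.17. Since the 9 genes move together between replicates, their common sign is not 9 independent observations.

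Cocaine in iMSN-D2RKO mice gave no call either, where 0% of all genes were called. Opalin again had the only unadjusted p below 0.05 among the 9. It ran from 16.8 to 48.7 FPKM after cocaine (median 34.5, n = 15) and from 23.8 to 166 FPKM after saline (median 38.7, n = 15), and the highest saline value is that of the library with the summed FPKM of 690048. Its group mean was lower after cocaine at each time point, by most at ZT7 (45.7 against 86.3 FPKM) and by least at ZT11 (40.6 against 42.4 FPKM). The difference was -0.36 (SE 0.13, 95% interval -0.63 to -0.09, unadjusted p = 0.00968, adjusted p = 0.910 in limma), and -0.20 without the 3 libraries of high summed FPKM. Mal differed by -0.16 (95% interval -0.43 to 0.12), Mbp by -0.01 (95% interval -0.26 to 0.24) and Mog by 0.04 (95% interval -0.47 to 0.54).

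The cocaine effect itself was then compared between the genotypes. No gene of the table was called (0% of 14643), and none of the 9 had an unadjusted p below 0.05. Mbp differed by 0.21 between the 2 effects (95% interval -0.14 to 0.57), Mog by 0.42 (95% interval -0.30 to 1.13) and Opalin by -0.04 (95% interval -0.43 to 0.34).

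**Figure D3:**
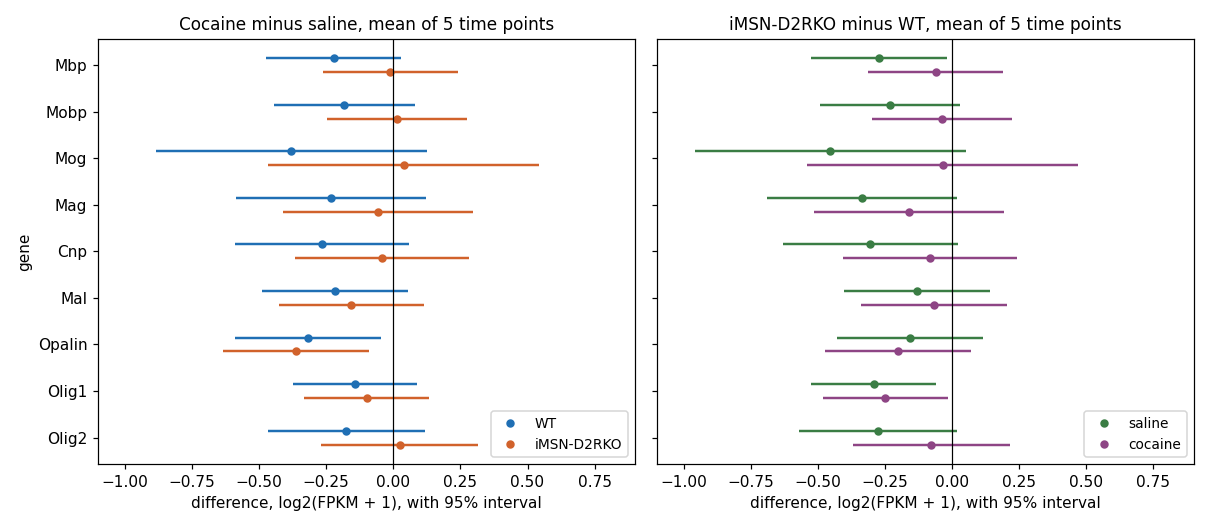
Differences on the log2(FPKM + 1) scale with 95% intervals from limma, cocaine minus saline by genotype (left) and iMSN-D2RKO minus WT by treatment (right), as means of 5 time points. No gene was called, and in the left panel the 2 Opalin intervals are the ones that lie wholly below 0.

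At single time points, 4 to 20 h after the injection, 0 of 90 pairs of gene and contrast were called and 0 had an unadjusted p below 0.05 (limma), beside 0.00478% of all pairs called. At ZT7 in WT mice, Mbp was 2714, 2887 and 3368 FPKM after saline and 1520, 1805 and 3462 FPKM after cocaine. Mog was 84.5, 87.3 and 101 FPKM after saline and 42.2, 50.2 and 101 FPKM after cocaine. In both genes 2 cocaine libraries lay below all saline libraries, whereas replicate 3 lay at the level of the highest, so the groups overlapped. Among all 66 libraries this replicate had the highest level of Mbp, Mobp, Mog, Cnp, Olig1 and Olig2.

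The saline and cocaine libraries of 8 of the 90 pairs did not overlap, beside 9% of all pairs. Of these, 5 belong to WT at ZT19, where 8.84% of all genes did not overlap and Mbp was 2149, 2153 and 2161 FPKM after saline and 1180, 1634 and 1650 FPKM after cocaine. Mog there was 23.2, 25.1 and 48.6 FPKM after saline and 10.9, 11.4 and 19.7 FPKM after cocaine. Of these 6 libraries 4 are set apart and a further cocaine library has a high summed FPKM, which leaves 1 saline library outside both kinds.

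Genotype was examined first at ZT3. None of the 9 genes was called or had an unadjusted p below 0.05, beside 0.041% of all genes called. Opalin was 37.6, 43.2 and 43.4 FPKM in WT and 52.5, 52.9 and 67.3 FPKM in iMSN-D2RKO mice, so these groups did not overlap, as was true of 14.1% of all genes. The difference was 0.46 (SE 0.30, 95% interval -0.15 to 1.06, adjusted p = 1 in limma). Mbp was 1749, 1923 and 2404 FPKM in WT and 1607, 2181 and 3038 FPKM in iMSN-D2RKO mice, with overlap and a difference of 0.13 (95% interval -0.43 to 0.69).

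After saline, all 9 genes were lower in iMSN-D2RKO mice on average over 5 time points, and none was called, beside 0.212% of all genes. Olig1 was 57.2 to 128 FPKM (median 81.9, n = 15) in iMSN-D2RKO and 69.4 to 159 FPKM (median 101, n = 15) in WT mice. Its difference was -0.29 (SE 0.12, 95% interval -0.52 to -0.06, unadjusted p = 0.0147, adjusted p = 0.302 in limma). Mbp was 1068 to 2614 FPKM (median 1774) in iMSN-D2RKO and 1284 to 3368 FPKM (median 2101) in WT mice, a difference of -0.27 (95% interval -0.52 to -0.02, unadjusted p = 0.0348, adjusted p = 0.393 in limma). The medians of the differences were -0.28 for the 9 genes, -0.19 for 27 other myelin genes, of which 0 were called and 8 had an unadjusted p below 0.05, and 0.01 for all genes. All 8 choroid plexus and ependymal markers were higher in this comparison (median 0.46, 3 at an unadjusted p below 0.05, 0 called, smallest adjusted p = 0.0967 in limma). Their summed level ran from 10.7 to 1181 FPKM in iMSN-D2RKO and from 7.60 to 57.0 FPKM in WT libraries of saline, and its part in the difference was not tested. After cocaine the 9 differences had a median of -0.08 beside 0.01 for all genes, and none was called, beside 0.109% of all genes. Olig1 was the only one with an unadjusted p below 0.05 (-0.25, 95% interval -0.48 to -0.02, adjusted p = 0.958 in limma), and Opalin differed by -0.20 (95% interval -0.47 to 0.07).

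Among the other cell type lists, calls over the time points came from markers of medium spiny neurons alone. Penk, the opioid precursor of indirect-pathway neurons, was higher in iMSN-D2RKO than in WT mice after saline (0.79, SE 0.14, adjusted p = 0.00113 in limma) and after cocaine (0.69, SE 0.14, adjusted p = 0.00889 in limma). Drd1 was higher after cocaine (0.48, SE 0.10, adjusted p = 0.00905 in limma). No gene of the other myelin, transcription factor, precursor, peripheral myelin, astrocyte, microglia, endothelial, choroid plexus or cortical lists was called in the 6 comparisons of cocaine and genotype over time points and at ZT3.

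At single conditions, 0 of 99 pairs of gene and contrast were called between the genotypes and 5 had an unadjusted p below 0.05 (limma), beside 1.77% of all pairs called. Groups did not overlap in 12 of 99 pairs, beside 16.5% of all pairs. At ZT7 after saline, where 3.07% of all genes were called, Mog was 84.5, 87.3 and 101 FPKM in WT and 31.7, 45.7 and 68.0 FPKM in iMSN-D2RKO mice. Olig1 was 143, 153 and 159 FPKM in WT and 72.1, 87.5 and 128 FPKM in iMSN-D2RKO mice. Neither overlapped, as was true of 19.1% of all genes, and the adjusted p for Olig1 was 0.112 in limma (difference -0.69). At this time point 2 of 27 other myelin genes, Gjc3 and Fa2h, were called as lower in iMSN-D2RKO mice (smallest adjusted p = 0.0405 in limma), as was 1 of 9 transcription factors, Sox8 (adjusted p = 0.0144 in limma). The iMSN-D2RKO libraries of this group include replicate 1, which has the summed FPKM of 690048. Its Mog was 45.7 FPKM and its ratio of Mal to Mog 8.80. At ZT19 after cocaine the order was the opposite, 11.9% of all genes were called and 44.9% did not overlap. Mog was 10.9, 11.4 and 19.7 FPKM in WT, of which 2 libraries are set apart and the third has a high summed FPKM, and 31.0, 37.3 and 48.7 FPKM in iMSN-D2RKO mice, of which none is. Its difference was 1.44 (unadjusted p = 0.0137, adjusted p = 0.067 in limma), and 1 of 9 transcription factors, Nkx2-2, was called as lower in iMSN-D2RKO mice (adjusted p = 0.0466 in limma). Here the kind of library and the genotype cannot be told apart.

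The time of day was compared between dark (ZT15, ZT19 and ZT23) and light hours (ZT3, ZT7 and ZT11). The ZT3 libraries stand in both series of a genotype, so the saline and cocaine comparisons share them. In WT saline 0 of the 9 genes were called and 5 had an unadjusted p below 0.05, beside 2.75% of all genes called. In the other series genes fell in dark hours: 4 in WT cocaine (13.7% of all genes called, 3.79% as lower), 5 in iMSN-D2RKO saline (27.3% called, 9.88% as lower) and 1 in iMSN-D2RKO cocaine (0.942% called, 0.328% as lower). No gene of the 9 rose. Differences between the series were not tested, and which series hold calls depended on the fit. With each series fitted alone, 5 genes were called in WT saline (22.6% of all genes), 5 in WT cocaine (19.1%), 0 in iMSN-D2RKO saline (0%; limma) and 1 in iMSN-D2RKO cocaine (1.3%).

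Mog fell by 0.93 in WT cocaine, from 35.0 to 101 FPKM in light hours (median 48.9, n = 9) to 10.9 to 57.7 FPKM in dark hours (median 32.6, n = 9), with an SE of 0.32 and an adjusted p of 0.048 in limma. Cnp (-0.59, adjusted p = 0.0485 in limma), Olig2 (-0.55, adjusted p = 0.0449) and Olig1 (-0.48, adjusted p = 0.0291) also fell in this series. In iMSN-D2RKO saline Mog fell by 0.90 (SE 0.32, adjusted p = 0.0372 in limma), and Mag (-0.74), Cnp (-0.70), Opalin (-0.58) and Olig1 (-0.45) fell with adjusted p between 0.0186 and 0.0259. In every one of these comparisons the 9 light and 9 dark libraries overlapped. Mbp, Mobp and Mal were called in no series, and Mal differed by 0.09 in WT cocaine and by -0.01 in iMSN-D2RKO saline.

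Of the 13 set-apart libraries 12 are of dark hours, and the genes called in dark hours include some that were low in these libraries (Mog, Mag, Cnp, Olig1 and Olig2) and 1 that was not (Opalin), while Mbp, lower in 8 of 10 groups, was not called. Without the 13 libraries and the 3 of high summed FPKM, Mog differed by -0.33 in WT cocaine and by -0.02 in iMSN-D2RKO saline, and none of the 9 genes was called in WT saline, WT cocaine or iMSN-D2RKO saline (1.91%, 1.09% and 1.2% of all genes were). This leaves no library of WT ZT19 cocaine, so that the dark mean of WT cocaine then rests on ZT15 and ZT23. Without the 13 alone, Cnp and Mog were called in WT cocaine (18.1% of all genes were) and none in iMSN-D2RKO saline (0.215%). Without replicate 1 of every group no pair was called, beside 0% to 2.75% of all genes in the 4 series. Without replicate 2 there were 5 calls, 4 in WT cocaine (22.2% of all genes) and 1 in iMSN-D2RKO saline (33.3%). Without replicate 3 there was 1, Opalin in iMSN-D2RKO saline (0.368%).

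Opalin in iMSN-D2RKO cocaine was called with and without these libraries. It fell by 0.74 in dark hours, from 36.02 to 67.3 FPKM in light hours (median 48.6, n = 9) to 16.8 to 45.1 FPKM in dark hours (median 27.6, n = 9), with an SE of 0.17 and an adjusted p of 0.0241 in limma. Its difference was -0.77 without the 16 libraries (adjusted p = 0.00166 in limma). It missed the threshold when any 1 replicate of every group was left out, with differences of -0.70 to -0.80 and adjusted p of 0.168 to 0.245 in limma.

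**Figure D4:**
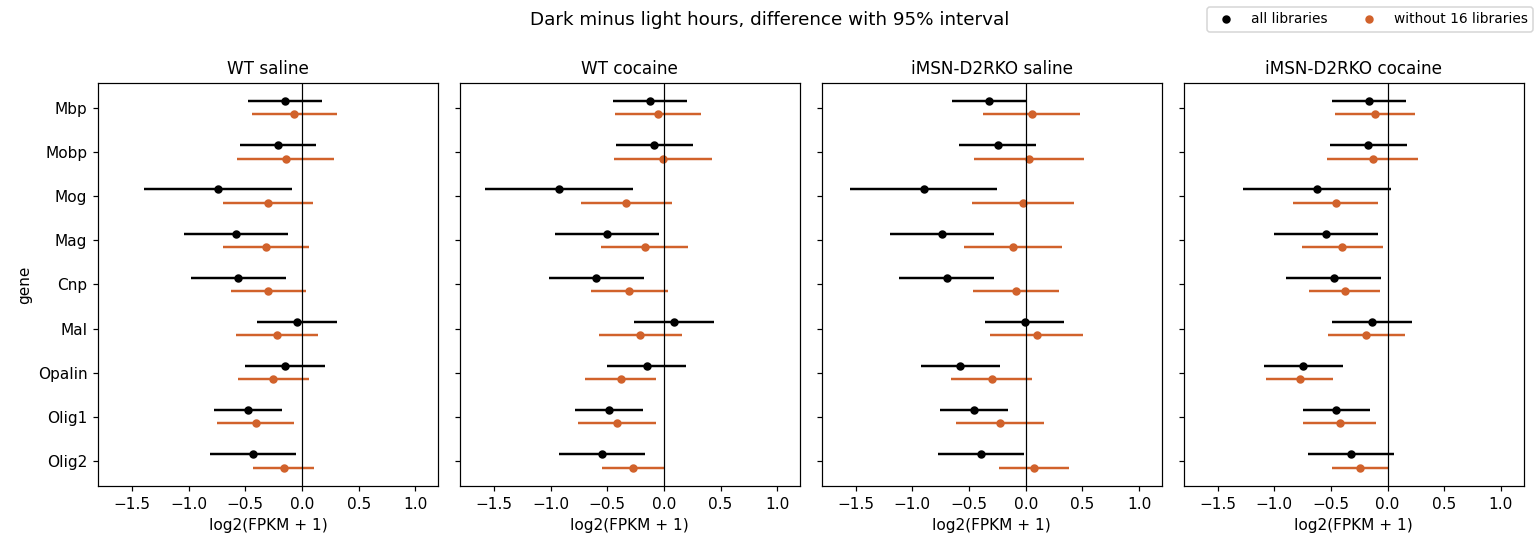
Dark minus light hours on the log2(FPKM + 1) scale with 95% intervals from limma, for the 9 genes in each series of 18 libraries, with all libraries (black) and without the 13 set-apart and 3 high-total libraries (orange). Mog, Mag and Cnp move towards 0 without the 16 libraries, and Opalin in iMSN-D2RKO cocaine stays at -0.77.

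Of 27 other myelin genes, 7 fell and 1 rose in dark hours in iMSN-D2RKO saline, beside 27.3% of all genes called and 9.88% called as lower, with a median difference of -0.22 beside 0.03 for all genes. Pllp, a proteolipid of myelin (-0.59), Gal3st1, which sulphates galactolipids (-0.52), Trf, the iron carrier transferrin (-0.69), and Gsn, an actin-severing protein (-0.41), were among those that fell, and Ermn rose (0.82). In the set-apart libraries Ermn (1.23), Trf (-0.62), Gsn (-0.48) and Gal3st1 (-0.46) differed in the same directions, and without those 13 libraries 0.215% of all genes were called in this series. Their part in the calls of these genes was not tested. In iMSN-D2RKO cocaine Pllp alone fell (-0.59, adjusted p = 0.0385 in limma), and in both WT series none of the 27 was called. Nkx2-2 rose in WT cocaine (0.44) and was the only call among 9 transcription factors in the 4 series. Of 10 precursor genes, Matn4 fell in WT cocaine (-0.57) and iMSN-D2RKO saline (-0.52), where Gpr17 rose (0.32). Calls in the other lists were 1 each. In WT cocaine Sox9 rose (0.53, astrocytes) and Pecam1 (-0.28, endothelium), Csf1r (-0.29, microglia) and Adora2a (-0.64, medium spiny neurons) fell. In iMSN-D2RKO saline Slc1a3 (0.39, astrocytes) and Tek (0.20, endothelium) rose and Trem2 (-0.44, microglia) and Adora2a (-0.63) fell. Peripheral myelin, choroid plexus and cortical lists had no call in the 4 series.

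Rhythm over 24 h was tested with JTK_CYCLE, which compares the order of a gene's values with that of cosine curves of 20 or 24 h and gives a corrected exact p per gene. At p below 0.01, 3 of 36 pairs of gene and series were called, beside 5.22% of all pairs. Opalin was called in WT saline (exact p = 0.00507, fitted period 20 h, phase 4 h after ZT3, beside 9.58% of all genes). It was also called in iMSN-D2RKO cocaine (exact p = 0.000559, fitted period 24 h, phase 2 h after ZT3, beside 1.09%). Mog was called in WT cocaine (exact p = 0.00533, fitted period 24 h, phase 6 h after ZT3, beside 7.57%). In iMSN-D2RKO saline none was, beside 2.57%. At p below 0.05 there were 6 pairs, beside 23.3% of all genes in WT saline, 19.3% in WT cocaine, 11.3% in iMSN-D2RKO saline and 4.11% in iMSN-D2RKO cocaine. Among the other genes of the lineage, Gsn in WT saline, Tspan2 in iMSN-D2RKO saline, Pllp in iMSN-D2RKO cocaine and Nkx2-2 in iMSN-D2RKO saline were called, and no precursor gene was. In the remaining lists Flt1 and Pde10a in WT saline, Ncmap, Sox9, Pecam1 and Adora2a in WT cocaine, Cldn5 in iMSN-D2RKO saline and Slco1a4 in iMSN-D2RKO cocaine were called, and no microglia, choroid plexus or cortical marker was.

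Without the 13 set-apart and 3 high-total libraries, 5 pairs were called: Cnp, Mog and Opalin in WT saline, and Opalin in WT cocaine and in iMSN-D2RKO cocaine. The share of all genes called at this setting is not given here, so the larger count is not a result about these genes. Mog in WT cocaine lost its call without the set-apart libraries (exact p = 0.307) and without ZT19 (exact p = 0.396), the time point where all 3 of its libraries had a high ratio of Mal to Mog. Opalin kept its calls without the 13 libraries, with exact p of 5.04e-05 in WT saline and 0.00337 in iMSN-D2RKO cocaine. Both Opalin calls were lost without ZT15 (exact p = 0.395 and 0.0465) and also without ZT7 (exact p = 0.03 and 0.0115) or ZT3 (exact p = 0.0121 and 0.0187). In WT saline the call was also lost without any 1 replicate of every group (exact p of 0.0286 to 0.898), and in iMSN-D2RKO cocaine without replicate 1 (exact p = 0.0156) or replicate 2 (exact p = 0.0286). Fitted as cosine and sine in limma, Opalin had an adjusted p of 0.191 in WT saline and 0.199 in iMSN-D2RKO cocaine.

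Opalin was lowest at ZT15 in each series. The 12 libraries of ZT15 ran from 16.8 to 35.2 FPKM (median 24.4) and the 54 of the other times from 24.7 to 166 FPKM (median 43.3), of which 10 were at or below 35.2 FPKM. At ZT15 the libraries were 20.1, 31.8 and 33.2 FPKM in WT saline, 20.9, 23.6 and 33.4 FPKM in WT cocaine, 23.8, 31.0 and 35.2 FPKM in iMSN-D2RKO saline and 16.8, 21.3 and 24.9 FPKM in iMSN-D2RKO cocaine. The median of the other times was 1.78-fold that of ZT15. Mbp showed no such minimum, with medians over all libraries of 1942 FPKM at ZT15, 1620 FPKM at ZT11 and 1694 FPKM at ZT19. Olig1 also had its lowest median at ZT15 (78.4 FPKM), close to that at ZT23 (82.8 FPKM) and below that at ZT3 (136 FPKM). The ZT15 minimum of Opalin was seen in the values and was not tested other than by the rhythm and the dark and light comparisons.

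**Figure D5:**
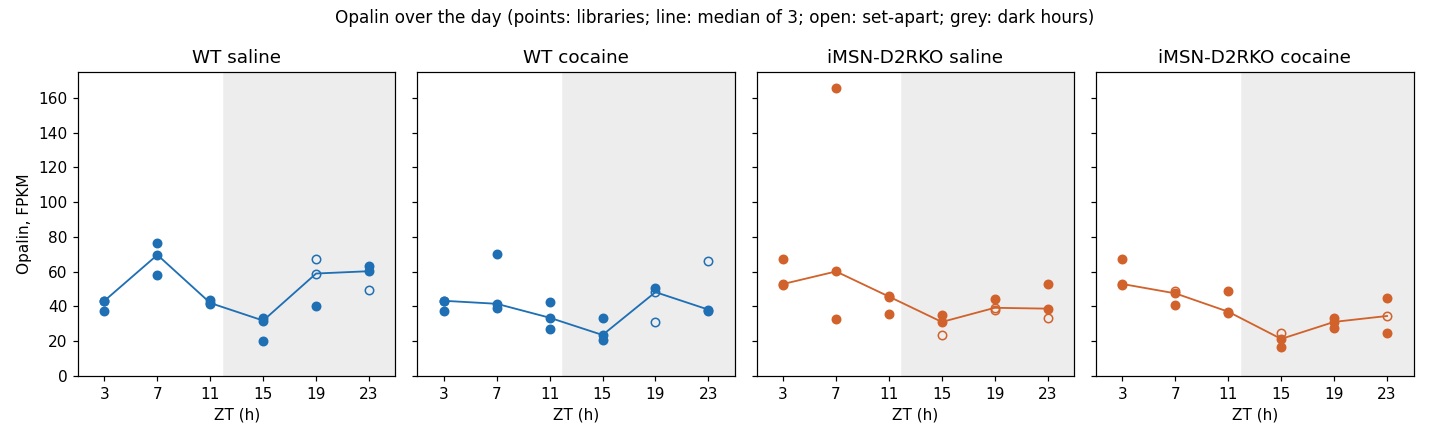
Opalin in FPKM against ZT in each series, with 3 libraries per time point, their median as a line, and set-apart libraries as open points. ZT15 has the lowest median in each panel, and 1 library of iMSN-D2RKO ZT7 saline reaches 166 FPKM.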

How the data were processed

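RNA of ventral striatum punches was sequenced in 66 libraries of 22 groups. The authors prepared stranded poly(A) libraries from 700 ng of RNA, read them as single ends of 100 cycles, used TopHat 2.1.1 with Bowtie2 2.3.4 for the alignment (mm10) and deposited FPKM per gene from Cufflinks (version given as 0.12.1) and Cuffnorm. The submitters' processing notes also name CASAVA 1.8.2 and Bowtie. The Cuffnorm option and annotation release are not given in the sources used here. The deposited FPKM table has 72 columns, since each of the 6 ZT3 libraries occurs under both treatments, and these were counted once.

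Read numbers are unknown, so precision was taken from the 3 replicates. Entries reaching 1 FPKM in any library were tested with limma 3.58.1 (R 4.3.3) on log2(FPKM + 1), which understates changes of low genes. A model with 1 mean per group, empirical Bayes moderation with a trend and Benjamini-Hochberg adjustment over all 14643 entries was used, at adjusted p < 0.05. Tested on simulated data for cocaine versus saline in WT with 14643 genes, it found 73 of 100 changes of 0.5 and 98 of 100 of 1 on the log2 scale and called 8 of 14443 others. JTK_CYCLE was written in Python 3.11.15 after its published rules, with periods of 20 and 24 h, phases every 2 h, Bonferroni correction and removal of at most 1 replicate per time point by Dixon's test. Tested on simulated data of 5000 genes, it found 100% of 200 rhythms of amplitude 0.6 (log2) and called 0.688% of the others. This share belongs to the simulated noise. The share found at the replicate SD of the oligodendrocyte genes, 0.32 for Olig1 to 0.71 for Mog, was not tested. Their few rhythm calls therefore do not show that rhythms of this size are absent.

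The 9 genes and the marker lists were chosen with earlier results of these data known. Named were all 9 genes, up to 6 called genes and the 3 most abundant of each oligodendrocyte list, called genes of other lists, and the 10 most and 5 least alike genes. The set-apart libraries are those beyond the largest gap on the axis of the replicates, computed without the oligodendrocyte lists. Alternatives were another pseudocount, filters, scaling, libraries left out, the library score as a covariate, a replicate block and fits of the compared groups alone. The 2 that leave out libraries of high summed FPKM were added after seeing the data. Sept4 and Pdgfra were not matched to an entry of their own and were not used here. Some genes of the marker lists are counted in their lists and not reported here by name.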

Additional observations from a re-analysis of the deposited data

How the results depend on the processing

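Alternatives changed few results of cocaine and genotype. Over 5 time points and at ZT3, the number of the 9 genes called stayed 0 in all 13 alternatives of each comparison. For cocaine at single time points, leaving out 1 replicate gave 0 to 1 of 90 pairs. For genotype at single conditions, 1 of 99 pairs was called without the 13 set-apart libraries, 3 with the library score as a covariate, 2 with the compared groups alone and 1 without the 3 high-total libraries. Shares of all genes called are not given here for these alternatives, so the counts are not a result about these genes.

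The dark and light comparison depended most on the processing. Its 10 of 36 pairs became 6 with no filter, 3 without the 13 set-apart libraries, 1 with the library score as a covariate, 1 without the set-apart and the 3 high-total libraries, and 0 to 5 without 1 replicate. In these first 4 alternatives, the shares of all genes called in WT cocaine were 7.4%, 18.1%, 4.58% and 1.09%, beside 13.7% at first. Those in iMSN-D2RKO saline were 15.8%, 0.215%, 1.88% and 1.2%, beside 27.3% at first. Mog in iMSN-D2RKO saline went from -0.90 to 0.0085 without the 13 libraries. The count with the compared groups alone was 11, but with 5 in WT saline, 5 in WT cocaine, 0 in iMSN-D2RKO saline and 1 in iMSN-D2RKO cocaine. The cause was not tested.

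Rhythm gave 3 of 36 pairs, and 6 with median-of-ratios scaling, 1 with the library score removed, 5 without the set-apart and the 3 high-total libraries, 1 without ZT3, 0 without ZT7, 6 at p under 0.05, 7 by limma's F test of cosine and sine, 7 by this test with a replicate block, and 0 to 2 without 1 replicate. Shares of all genes called are not given here for these alternatives, except at p under 0.05. Values that turned in sign without 1 replicate were Mal after cocaine in iMSN-D2RKO mice (-0.16, range -0.35 to 0.048, positive without replicate 1) and the difference of the cocaine effects for Mbp (0.21, range -0.085 to 0.53) and Mog (0.42, range -0.11 to 0.73), both negative without replicate 3. None of these 3 was called. The SD stayed above the median of all genes for 9 of 9 genes in all 9 alternatives, and the correlation with Mbp passed for 8 of 8 pairs in 8 alternatives and for 6 without replicate 3.

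Replicate numbers share only a number: deviations of same-numbered libraries correlated with a median r of -0.00269 (693 pairs), and 25 of 66 libraries were closest to one of their own number. With a replicate block the dark and light count was 8 of 36 and no other limma count changed. Read depth limits could not be given, since FPKM hold no read numbers.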
